A study of Homo sapiens with 30 samples.

Results

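The comparison described here set long against short exposure of A549 cells to MS023 while both arms received dexamethasone (Dex). It used 4 of the 30 libraries of a PRO-seq study, and its members were chosen by their labels alone. The chronic group (2 libraries) was given 1 µM MS023 for 7 days and then 100 nM Dex for 3 hours. The acute group (2 libraries) was given 1 µM MS023 together with 100 nM Dex for 3 hours. All groups carried 0.01% DMSO. By the labels the arms differed in the time spent with the inhibitor and in its order, before Dex or together with it. The effects of time and order cannot be told apart. The labels do not say whether MS023 was still present during the 3 hours of Dex in the chronic group. The reference groups of the same study were untreated cells, Dex alone for 3 hours, MS023 alone for 2, 4 or 7 days, and GSK591 given for 7 days before Dex or for 3 hours with it. A549 is an established line from a human lung adenocarcinoma, and each sample was a flask of this 1 line. The libraries of a group were not described as separate cultures, so the p-values measure the spread between these libraries, which may be technical. The time in culture under treatment and the time with the inhibitor cannot be told apart.

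MS023 inhibits the type I protein arginine methyltransferases, the enzymes that place asymmetric dimethylarginine on histones and on many RNA-binding proteins, and GSK591 inhibits PRMT5, which places the symmetric mark. Dex is an agonist of the glucocorticoid receptor, which binds DNA once it holds the hormone and raises some genes and lowers others. PRO-seq labels the ends of RNA still held by engaged polymerase, so that it reads transcription rather than the amount of stored mRNA.

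The libraries held between 8441211 and 13069598 counts over all genes. In the acute group the totals were 9829426 and 8888745, and in the chronic group 9172567 and 9042606. Mitochondrial genes took 58.71% to 78.67% of the counts over the series, with 71.24% and 61.03% in the acute libraries and 58.71% and 59.78% in the chronic ones. The 12 A549 and epithelial markers were all detected and summed to between 1202 and 2028 CPM (counts scaled to library size) in the 4 libraries. Of 10 blood cell markers 2 passed the filter on low counts, with sums from 4.27 to 7.76 CPM and the platelet gene PPBP at 0, and of 10 fibroblast markers 4 passed, with sums from 6.67 to 11.0 CPM and LUM at 0. The 8 endothelial markers, of which 3 passed, summed to 16.6 and 13.5 CPM in the acute group and 8.64 and 7.82 CPM in the chronic group. The labelled cell type was therefore not contradicted by its markers. Acute replicate 2 stood apart. Its log2 CPM had a Pearson correlation of 0.92 with acute replicate 1 across 11117 genes, against 0.96 to 0.98 between the replicates of every other group. It had 1.80% of its nuclear counts on processed pseudogenes, against 1.04% to 1.39% in the other 29 libraries. Genes of 10 or more exons were higher in acute replicate 2 than in replicate 1 (median log2 ratio 0.06 over 5665 protein-coding genes), and genes of 1 exon were lower (median -0.22 over 282). Processed pseudogenes resemble spliced mRNA, and whether this library held spliced mRNA besides nascent RNA was not tested. For this reason each result is given with all libraries and without acute replicate 2. In the second fit the lone acute library is assumed to vary like the other groups.

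Genes were compared with edgeR's quasi-likelihood test over all 15 groups at once, and a gene was called where its Benjamini-Hochberg adjusted p was below 0.05 over the 22919 genes tested. Chronic MS023 differed from acute MS023 in 3773 genes, 16.5% of those tested. Of these, 1704 genes were higher (7.43%) and 2069 lower (9.03%) after 7 days of inhibitor. Without acute replicate 2, 1813 genes (7.91%) were called, 728 higher (3.18%) and 1085 lower (4.73%). The genes called in the same direction both times numbered 1514 (6.61%), of which 615 were higher (2.68%) and 899 lower (3.92%). The 2 chronic libraries lay wholly above or below the 2 acute ones in CPM for 11688 genes, 51% of those tested. These levels are relative to TMM scaling (trimmed mean of M values), which centres the libraries on the assumption that most genes do not change. With total counts as the only scaling, 96.5% of 6285 called genes were higher, against 45.2% of the calls with TMM, and the median log2 fold change over all genes went from -0.02 to 0.51. Falls are therefore falls relative to most genes.

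**Figure D1:**
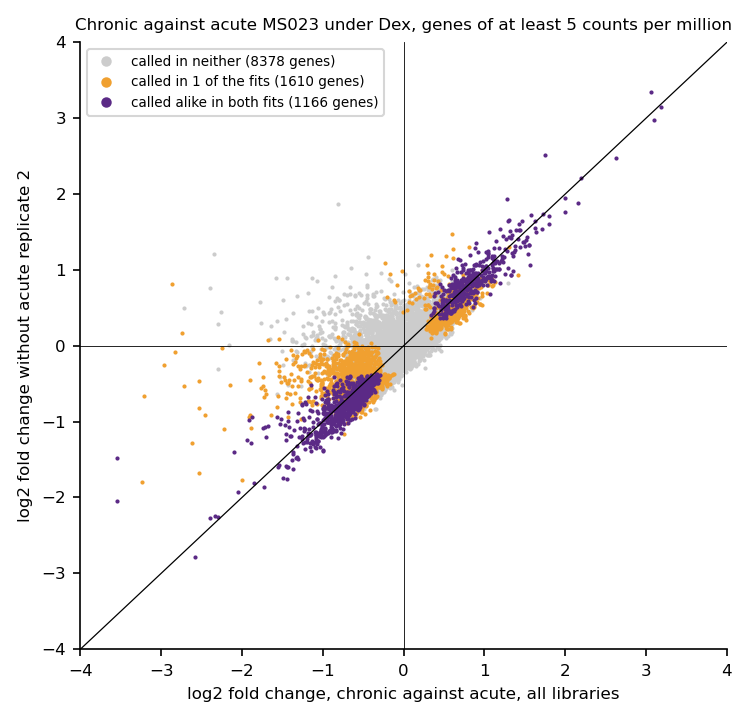
Log2 fold change of chronic against acute MS023 under Dex for 11154 genes of at least 5 CPM, with all libraries (horizontal axis) and without acute replicate 2 (vertical axis), 1 point per gene and the line of equality drawn. Of these genes 1166 were called alike both times, 1610 in 1 of the fits and 8378 in neither, and 22 of those called once had opposite signs.

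The largest rises among protein-coding genes were in NUPR1, a stress-induced nuclear cofactor, and CCL2, the chemokine that draws monocytes. NUPR1 (chr16:28532708-28539174, minus strand, GRCh38) was at 8.20 and 7.73 CPM in acute replicates 1 and 2 and at 70.5 and 75.2 CPM in chronic replicates 1 and 2. The chronic libraries lay far above both acute ones, a log2 fold change of 3.19 ± 0.17 (SE, adjusted p = 5.45e-19), or 3.15 without acute replicate 2. CCL2 (chr17:34255218-34257203, plus strand) was at 1.75 and 1.47 CPM in the acute group and 12.8 and 14.8 CPM in the chronic group. Its log2 fold change was 3.10 ± 0.25 (adjusted p = 9.07e-13) with no overlap of the groups. CCL2 is a gene that glucocorticoids hold down in many cells, and with Dex alone it was at 2.23 and 2.08 CPM, against 6.01 and 6.55 CPM in untreated cells. The chronic group was thus above the untreated cells although it had received Dex.

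The other 10 leading rises were smaller, and all were called both with and without acute replicate 2. SOX9 (chr17:72121020-72126420, plus strand), a transcription factor of epithelial progenitors, was at 9.62 and 7.83 CPM in the acute group and 26.8 and 27.6 CPM in the chronic group, a log2 fold change of 1.64 ± 0.16 (adjusted p = 6.56e-11). GPX2 (chr14:64939152-64942905, minus strand), a glutathione peroxidase of epithelia, was at 9.62 and 9.88 CPM against 29.3 and 31.1 CPM, a log2 fold change of 1.63 ± 0.15 (adjusted p = 6.82e-11). Neither gene had an acute library within reach of the chronic pair. EBF4 (chr20:2692878-2760108, plus strand), of the early B cell factor family, rose by a log2 fold change of 2.16 ± 0.19, from 7.76 and 5.09 CPM to 25.9 and 31.3 CPM. Membrane proteins were among them. The amino acid transporter gene SLC43A1 (chr11:57484534-57515786, minus strand) rose by a log2 fold change of 2.00 ± 0.31 and the water and glycerol channel gene AQP3 (chr9:33441154-33447633, minus strand) by 2.00 ± 0.30. RTN4RL1 (chr17:1934677-2025345, minus strand), a relative of the Nogo receptor, rose by 1.58 ± 0.29. RASSF10 (chr11:13009577-13012106, plus strand), which carries a Ras-association domain, rose by a log2 fold change of 1.71 ± 0.18, the GTPase gene RAB37 (chr17:74670578-74747335, plus strand) by 1.63 ± 0.20, and RASGRP2 (chr11:64726911-64745456, minus strand), an exchange factor for Rap, by 1.56 ± 0.28. The atypical kinase gene ALPK2 (chr18:58481247-58628957, minus strand) rose by 1.76 ± 0.25. RAB37 and ALPK2 each overlap a gene on the opposite strand, and the strand setting of the counting is not given in the sources used here.

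**Figure D2:**
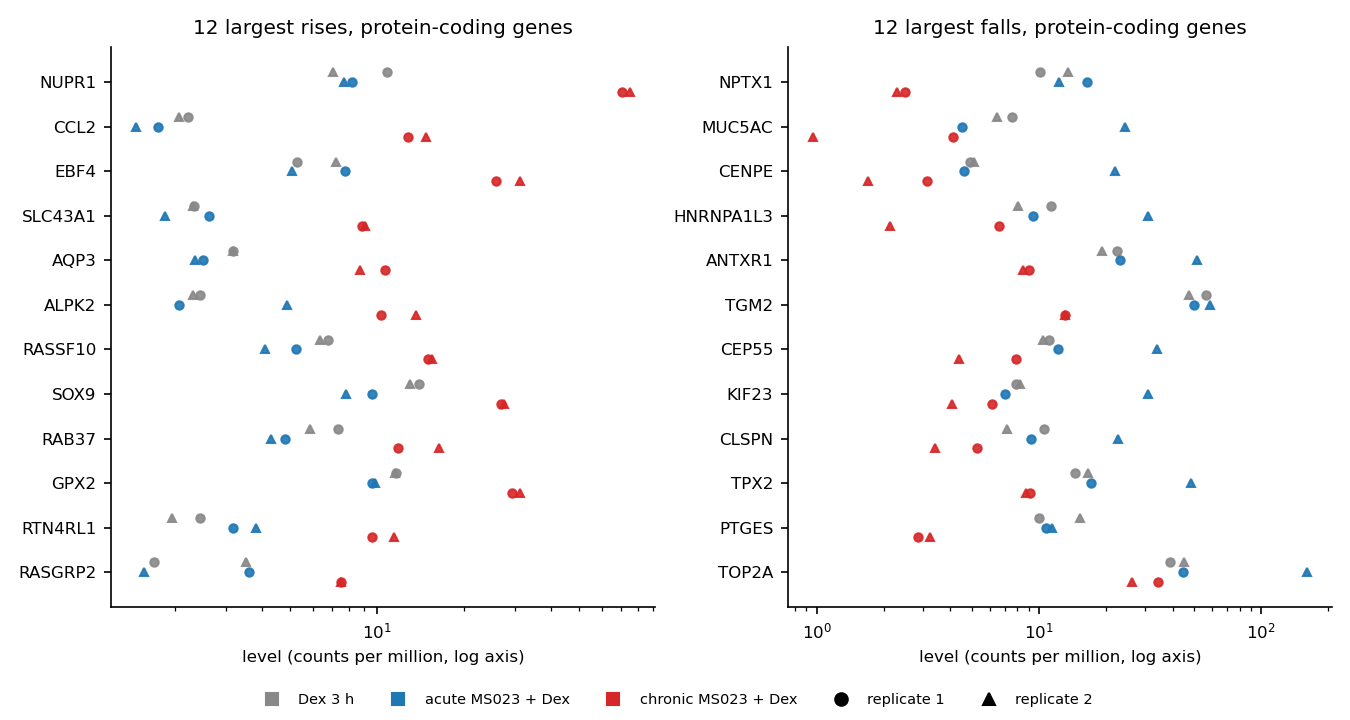
Level in CPM (log axis) of the 12 largest rises and 12 largest falls among protein-coding genes, with 1 symbol per library for Dex alone, acute MS023 with Dex and chronic MS023 with Dex. For NUPR1 the chronic libraries stand at 70.5 and 75.2 CPM, while for CENPE and TOP2A acute replicate 2 alone lies far to the right at 21.9 and 161 CPM.

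Among the 12 largest falls, TGM2, NPTX1, PTGES, ANTXR1, CEP55 and TPX2 were called with and without acute replicate 2. TGM2 (chr20:38127387-38166578, minus strand) codes for tissue transglutaminase, which crosslinks proteins. It was at 49.98 and 58.6 CPM in the acute group and at 13.1 CPM in both chronic libraries, a log2 fold change of -2.05 ± 0.12 (adjusted p = 4.64e-18), or -1.93 without acute replicate 2. NPTX1 (chr17:80467148-80477843, minus strand), a secreted pentraxin, was at 16.5 and 12.3 CPM against 2.49 and 2.29 CPM, a log2 fold change of -2.58 ± 0.24 (adjusted p = 3.42e-11). In both genes the acute libraries lay close to each other and well above the chronic ones. PTGES (chr9:129738331-129753047, minus strand), which makes prostaglandin E, fell from 10.7 and 11.4 CPM to 2.86 and 3.25 CPM, a log2 fold change of -1.86 ± 0.23 (adjusted p = 7.94e-08). ANTXR1 (chr2:69013178-69249327, plus strand), a collagen-binding receptor, was at 23.1 and 51.6 CPM in the acute group and 9.01 and 8.49 CPM in the chronic group. Its fall was a log2 fold change of -2.10 with all libraries and -1.40 without acute replicate 2. Against Dex alone, chronic MS023 gave log2 fold changes of -1.99 for TGM2, -2.30 for NPTX1, -2.04 for PTGES and -1.26 for ANTXR1, all called.

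The other leading falls rested in whole or in large part on acute replicate 2. The mucin gene MUC5AC was at 4.48 CPM in acute replicate 1 and 24.5 in replicate 2, the kinetochore motor gene CENPE at 4.59 and 21.9, the midbody kinesin gene KIF23 at 7.00 and 30.9, the checkpoint mediator gene CLSPN at 9.19 and 22.7, and the topoisomerase gene TOP2A at 44.6 and 161. In the chronic group they were at 4.10 and 0.96, 3.15 and 1.70, 6.15 and 4.06, 5.27 and 3.395, and 34.3 and 26.3 CPM in that order. Their log2 fold changes went from -2.53, -2.46, -1.91, -1.89 and -1.77 with all libraries to -0.82, -0.92, -0.45, -1.08 and -0.56 without that library, none of the latter called. HNRNPA1L3, a near copy of an hnRNP gene whose reads could be split between copies, went from -2.22 to -1.10 and lost its call as well. TPX2 (chr20:31739271-31801805, plus strand), a spindle assembly factor, kept its call at -1.87 ± 0.34 and -0.94, from 17.2 and 48.1 CPM in the acute group to 9.15 and 8.78 CPM in the chronic group. CEP55 (chr10:93496632-93529092, plus strand), which acts in the last step of cell division, went from -1.92 ± 0.40 to -0.98 (adjusted p = 0.0466).

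Counts of calls in each gene list are to be read against all genes, of which 9.03% were lower and 7.43% higher with all libraries. The shares without acute replicate 2 are given above. With all libraries, genes of cell division had the most falls of the gene lists examined. Without acute replicate 2 the replication and actin lists described below had more, and against Dex alone the replication, actin and ribosomal protein lists did. Of 40 tested genes of mitosis and G2/M, 34 were lower and none higher with all libraries, with a median log2 fold change of -1.01 against -0.02 over all genes. Without acute replicate 2, 11 were lower and none higher, and the median was -0.51. All 11 were among the 34. Acute replicate 2 held the highest of the 4 values in 30 of the 40 genes. The 40 genes summed to 689 CPM in acute replicate 1 and 1304 CPM in replicate 2, while the chronic libraries were at 502 and 433 CPM. The libraries with Dex alone were at 673 and 670 CPM and the untreated ones at 697 and 667 CPM, so acute replicate 1 was near these groups and acute replicate 2 was not. Against Dex alone, 11 of the 40 were lower and none higher after chronic MS023, with a median of -0.55. Counts in a flask cannot tell fewer dividing cells from less transcription per cell.

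The 11 genes that fell both ways were PLK1, AURKA and AURKB (mitotic kinases), CCNB2 (a B-type cyclin), CDC20 (an activator of the anaphase-promoting complex), BIRC5 (a partner of AURKB), FOXM1 (a transcription factor of G2/M genes), and PRC1, NUSAP1, TACC3 and TPX2, which act on spindle microtubules. CDC20 was at 40.1 and 32.7 CPM in the acute group and 20.5 and 21.0 CPM in the chronic group, a log2 fold change of -0.81 ± 0.13 (adjusted p = 6.34e-06). FOXM1 was at 20.7 and 18.9 CPM against 9.74 and 10.8 CPM, a log2 fold change of -0.94 ± 0.15 (adjusted p = 1.40e-05). CCNB2 was at 30.9 and 25.8 CPM against 16.2 and 16.5 CPM, a log2 fold change of -0.80 ± 0.14 (adjusted p = 6.44e-05). In all 3 genes the acute replicates were alike and the groups did not overlap. The proliferation marker MKI67 was at 68.7 and 209 CPM in the acute group and 60.3 and 40.5 CPM in the chronic group, and its log2 fold change of -1.46 went to -0.45 without acute replicate 2, no longer called. These genes, and the list members named from here on without a leading rank, were in part chosen after their values were seen.

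The promoters of the mitosis genes are shown because many carry 2 short motifs known from cell-cycle genes, the cell-cycle homology region TTTGAA and the CCAAT box. The promoter windows, 300 bases around each start, come from RefSeq on GRCh38.p14, and 34 of the 40 genes matched. On either strand, 26 of the 34 windows (76.5%) held TTTGAA, against 15.4% of all 27305 promoters and 10.1% of those of the tested genes, and 27 (79.4%) held CCAAT, against 35.7% and 35.6%. Genes without a matched window were not considered for display, and those shown may not be all that qualify. The 4 genes shown fell both ways and had both motifs within 150 bases upstream. They were CDC20 (chr1:43358831-43358980, plus strand), CCNB2 (chr15:59104996-59105145, plus strand), PRC1 (chr15:90994536-90994685, minus strand) and PLK1 (chr16:23678739-23678888, plus strand). Their 150 bases before the start are given from 5′ to 3′ on the strand of the gene, with both motifs in capitals.
CDC20: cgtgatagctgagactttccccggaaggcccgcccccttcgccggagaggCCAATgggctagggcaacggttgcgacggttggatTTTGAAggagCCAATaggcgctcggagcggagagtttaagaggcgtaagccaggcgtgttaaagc
CCNB2: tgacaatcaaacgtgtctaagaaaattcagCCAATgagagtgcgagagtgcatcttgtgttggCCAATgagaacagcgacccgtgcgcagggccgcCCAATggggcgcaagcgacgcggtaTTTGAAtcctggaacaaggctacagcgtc
PRC1: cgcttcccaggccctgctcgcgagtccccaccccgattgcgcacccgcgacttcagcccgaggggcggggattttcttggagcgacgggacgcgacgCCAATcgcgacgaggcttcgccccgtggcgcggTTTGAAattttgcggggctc
PLK1: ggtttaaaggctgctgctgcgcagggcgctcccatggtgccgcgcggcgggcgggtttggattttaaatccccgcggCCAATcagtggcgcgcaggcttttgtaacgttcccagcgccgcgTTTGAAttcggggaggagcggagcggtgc
PLK1 was at 30.1 and 25.6 CPM in the acute group and 21.1 and 20.8 CPM in the chronic group, and PRC1 at 26.6 and 24.0 CPM against 17.1 and 19.8 CPM, log2 fold changes of -0.41 and -0.45, with no overlap of the groups. A match of letters is a description and not evidence that a factor binds there.

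Genes of DNA replication and G1/S were lower too, and their median depended less on acute replicate 2. Of 45 tested entries, 25 were lower and 1 higher, with a median log2 fold change of -0.56. With the doubtful library left out, 16 were lower and none higher, with a median of -0.53, and 15 were lower both ways. Acute replicate 2 held the highest of the 4 values in 32 of the 45. The list summed to 690 and 785 CPM in the acute group and 485 and 497 CPM in the chronic group, against 684 and 690 CPM with Dex alone. Against Dex alone, 19 were lower and none higher. The falls covered the MCM helicase that unwinds the origin (MCM3, MCM4, MCM5, MCM6), its loader CDC6 and its partner MCM10, nucleotide supply (RRM2, TK1), the polymerase and clamp machinery (POLE, RFC5, FEN1), the uracil glycosylase UNG, chromatin copying (CHAF1A, UHRF1) and the transcription factor E2F1. RRM2, a subunit of ribonucleotide reductase, was at 50.5 and 50.1 CPM in the acute group and 31.6 and 32.3 CPM in the chronic group, a log2 fold change of -0.65 ± 0.11 (adjusted p = 3.25e-05). UHRF1, which recruits the maintenance DNA methyltransferase, was at 18.5 and 20.0 CPM against 8.28 and 9.37 CPM, a log2 fold change of -1.12 ± 0.15 (adjusted p = 4.53e-07). MCM3 was at 11.2 and 21.3 CPM against 5.71 and 6.42 CPM, with -1.43 for all libraries and -0.88 without acute replicate 2. The 1 gene that was higher, the G1/S cyclin gene CCNE2, was at 5.80 and 6.56 CPM against 8.79 and 9.23 CPM and lost its call without that library (adjusted p = 0.108).

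The replication genes had another promoter motif. The E2F letters TTCCCGC stood on either strand in 18 of 39 matched windows (46.2%), against 6.56% of all promoters and 9.56% of those of the tested genes, and in 2 of the 34 mitosis windows (5.88%). TTTGAA stood in 1 of the 39 (2.56%). Members without a matched window were not considered for display, and those shown may not be all that qualify. The 3 members shown fell both ways and had the E2F letters within 150 bases upstream. They were MCM3 (chr6:52284743-52284892, minus strand), CHAF1A (chr19:4402490-4402639, plus strand) and UHRF1 (chr19:4909351-4909500, plus strand), given with TTCCCGC or its complement in capitals.
MCM3: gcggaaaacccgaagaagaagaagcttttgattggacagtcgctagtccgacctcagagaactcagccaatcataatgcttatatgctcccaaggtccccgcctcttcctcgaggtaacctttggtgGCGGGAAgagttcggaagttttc
CHAF1A: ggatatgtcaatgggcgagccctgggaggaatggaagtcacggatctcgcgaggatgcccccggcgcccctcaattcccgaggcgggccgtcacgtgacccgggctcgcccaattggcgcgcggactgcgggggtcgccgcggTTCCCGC
UHRF1: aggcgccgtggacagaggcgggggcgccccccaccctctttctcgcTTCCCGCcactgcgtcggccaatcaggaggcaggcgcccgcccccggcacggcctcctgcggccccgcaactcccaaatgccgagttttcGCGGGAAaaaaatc
CHAF1A, the large subunit of chromatin assembly factor 1, was at 15.3 and 22.3 CPM in the acute group and 7.76 and 8.12 CPM in the chronic group, a log2 fold change of -1.25 ± 0.18, or -0.95 without acute replicate 2.

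**Figure D3:**
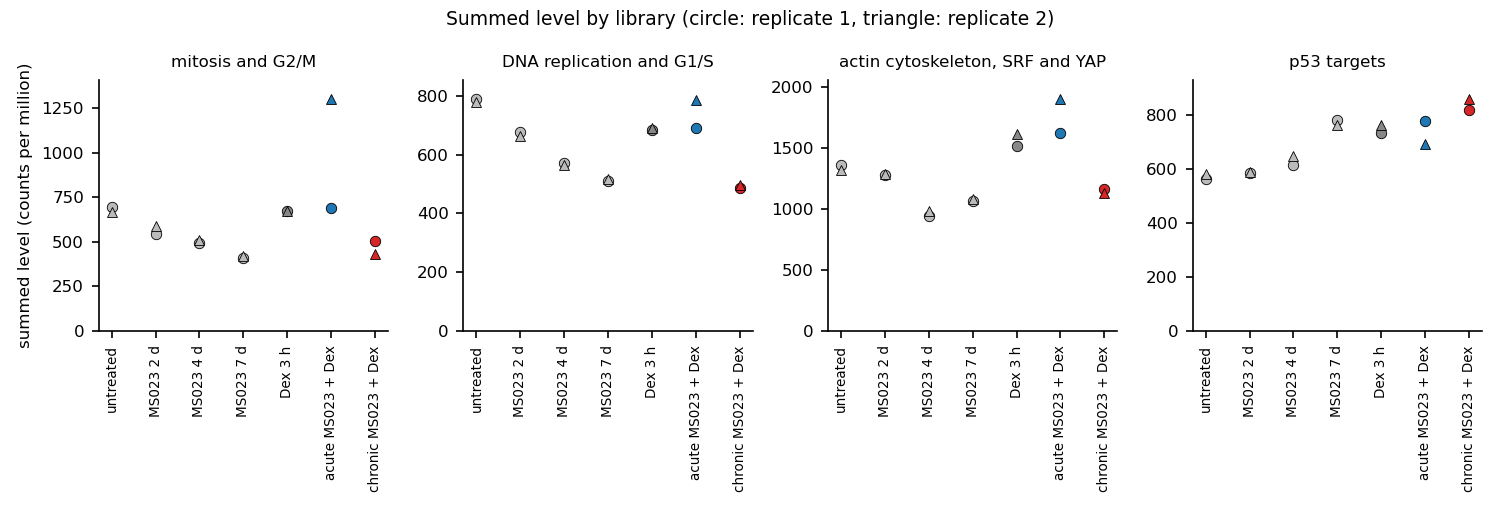
Summed level in CPM of 4 gene lists by library, over untreated cells, MS023 alone for 2, 4 and 7 days, Dex alone, acute MS023 with Dex and chronic MS023 with Dex. In the mitosis panel acute replicate 2 stands alone at 1304 CPM, while in the replication and actin panels both chronic libraries lie below both acute ones.

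Along the days of MS023 without Dex, the summed level of the mitosis list was 697 and 667 CPM in untreated cells, 545 and 586 CPM at 2 days, 494 and 510 CPM at 4 days and 411 and 422 CPM at 7 days. The replication list was at 791 and 778, 676 and 664, 571 and 564, and 509 and 519 CPM at the same points. The chronic libraries with Dex were near the 7 day libraries in both lists.

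Genes of homologous recombination and the Fanconi pathway were lower in 14 of 20 cases with all libraries and in 3 without acute replicate 2 (medians -0.86 and -0.46), none being higher. BRIP1, a helicase that works with BRCA1, was at 13.3 and 15.3 CPM in the acute group and 8.35 and 5.24 CPM in the chronic group, and BARD1, the BRCA1 partner, at 9.08 and 9.29 CPM against 4.76 and 4.21 CPM. Their log2 fold changes were -1.07 and -1.03, and -0.97 and -1.02 without acute replicate 2, all called. BRCA2 was at 5.25 and 12.9 CPM against 3.95 and 3.62 CPM, and its log2 fold change of -1.27 went to -0.47, no longer called.

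RNA-binding proteins rich in arginine and glycine are the best known substrates of the type I enzymes. In this comparison most calls of lower genes among them depended on acute replicate 2. Of 40 tested genes for hnRNPs and other proteins with such stretches, 24 were lower and none higher with all libraries, and 6 were lower and none higher without it. The median went from -0.49 to -0.24, and acute replicate 2 was the highest of the 4 libraries in 36 of the 40. With total counts as the only scaling the median was 0.01. Over all genes tested, 9.03% were lower and 7.43% higher after chronic than after acute MS023 with all libraries. Comparisons without the acute MS023 libraries had lower members too, and none higher. In cells without Dex, 7 days of MS023 against untreated cells had 22 of the 40 lower (median -0.55). Chronic against acute GSK591 had 20 lower (median -0.49), and chronic MS023 against Dex alone had 5 lower (median -0.22). FBL, the methyltransferase of the nucleolus, was one of the 6, at 22.5 and 34.6 CPM in the acute group and 11.6 and 9.82 CPM in the chronic group, a log2 fold change of -1.42 ± 0.19, or -1.07 without acute replicate 2. NCL (nucleolin) was at 146 and 417 CPM against 120 and 88.3 CPM and HNRNPM at 24.9 and 77.5 CPM against 19.2 and 11.9 CPM. Their log2 fold changes of -1.43 and -1.73 went to -0.49 and -0.68 without acute replicate 2, neither called. Of 26 genes of SR and SR-like splicing factors, 7 were lower and 1 higher, and 2 lower without that library. Of 31 core snRNP genes, 9 were lower and 1 higher, and 3 lower without it, among them SNRPB, an Sm protein that carries methylated arginines, at 20.5 and 24.5 CPM against 12.9 and 12.8 CPM (log2 fold changes -0.81 and -0.67). Of 79 ribosomal protein genes, 19 were lower and 1 higher, with 8 lower and 2 higher without that library, and 7 were lower both ways. RPS26 was the member that was higher both ways, from 8.64 and 10.1 CPM to 17.7 and 15.4 CPM, a log2 fold change of 0.82 ± 0.17. In the list of methyltransferases and their partners, 1 of 10 genes was lower, near the 9.03% of all genes. It lost its call without acute replicate 2. That gene was CLNS1A, which codes for a partner of PRMT5, with a log2 fold change of -0.81 ± 0.20 from 8.09 and 9.20 CPM to 5.49 and 4.35 CPM. PRMT1, the main type I enzyme, was at 40.7 and 37.7 CPM in the acute group and 30.5 and 35.3 CPM in the chronic group (log2 fold change -0.25, adjusted p = 0.113), and PRMT5 at 5.91 and 6.85 CPM against 7.91 and 7.38 CPM (0.26, adjusted p = 0.393). CARM1 and PRMT3 had log2 fold changes of -0.39 and -0.23 that were not called, and PRMT6 did not pass the filter on low counts.

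The genes of the actin cytoskeleton and of the SRF and YAP pathways, which read cell shape and tension, fell with little dependence on the doubtful library. Of 26 tested members, 18 were lower and none higher, with a median log2 fold change of -0.61. Without acute replicate 2, 13 were lower and none higher, with a median of -0.55, and all 13 were among the 18. With total counts as the only scaling the median was -0.10. Against Dex alone 13 were lower and none higher. FLNA, which crosslinks actin filaments, was at 157 and 201 CPM in the acute group and 104 and 83.0 CPM in the chronic group, a log2 fold change of -0.94 ± 0.12 (adjusted p = 2.24e-07). ACTG1, cytoplasmic gamma-actin, was at 321 and 308 CPM against 224 and 231 CPM, a log2 fold change of -0.46 ± 0.10 (adjusted p = 0.00104). ZYX, of the focal adhesions, was at 30.7 and 26.1 CPM against 17.4 and 18.6 CPM, and CCN1, a secreted target of YAP, at 31.8 and 29.5 CPM against 19.0 and 18.8 CPM, log2 fold changes of -0.66 and -0.70. In these 4 genes every acute library was above every chronic one. TPM4 and VCL fell by log2 fold changes of -1.31 and -0.94, and by -0.99 and -0.60 without acute replicate 2. MYH9, a nonmuscle myosin heavy chain, was at 58.3 and 150 CPM against 51.3 and 29.2 CPM and was called only with that library.

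Matrix and adhesion genes were called lower more often than higher. Over all genes tested, 9.03% were lower and 7.43% higher with all libraries. Of 35 tested, 11 were lower and 2 higher, and 7 lower and 2 higher without acute replicate 2, all of which were called in the same direction with all libraries. The median of -0.46 was 0.03 with total counts as the only scaling. ITGA5, the fibronectin receptor chain, was at 24.8 and 21.8 CPM in the acute group and 12.4 and 10.9 CPM in the chronic group, a log2 fold change of -0.99 ± 0.14 (adjusted p = 1.44e-06). The collagen crosslinking enzyme gene LOXL2 was at 16.0 and 22.9 CPM against 7.32 and 6.94 CPM, a log2 fold change of -1.45 ± 0.22. TGFBI, a matrix protein, was at 47.7 and 65.5 CPM against 28.7 and 19.6 CPM, a log2 fold change of -1.23 ± 0.16. The 2 genes that were higher were COL1A1, from 2.41 and 2.74 CPM to 6.66 and 5.61 CPM, and TGFB1, from 31.9 and 32.5 CPM to 51.6 and 49.3 CPM, log2 fold changes of 1.25 and 0.65. COL1A1 is also a fibroblast marker, and the summed fibroblast list was at 6.67 and 7.53 CPM in the acute and 11.0 and 7.23 CPM in the chronic libraries. Its part in the result was not tested. PLAU, which codes for urokinase, a protease that acts on the matrix, fell from 14.8 and 10.1 CPM to 5.57 and 3.99 CPM, a log2 fold change of -1.37 ± 0.19 (adjusted p = 8.07e-07). The epithelial keratin gene KRT7 (chr12:52232520-52252186, plus strand) was at 447 and 459 CPM in the acute group and 236 and 229 CPM in the chronic group, a log2 fold change of -0.96 ± 0.09 (adjusted p = 1.78e-10). The mucin gene MUC5B rose from 6.23 and 9.59 CPM to 22.0 and 17.5 CPM, a log2 fold change of 1.31 ± 0.21.

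**Figure D4:**
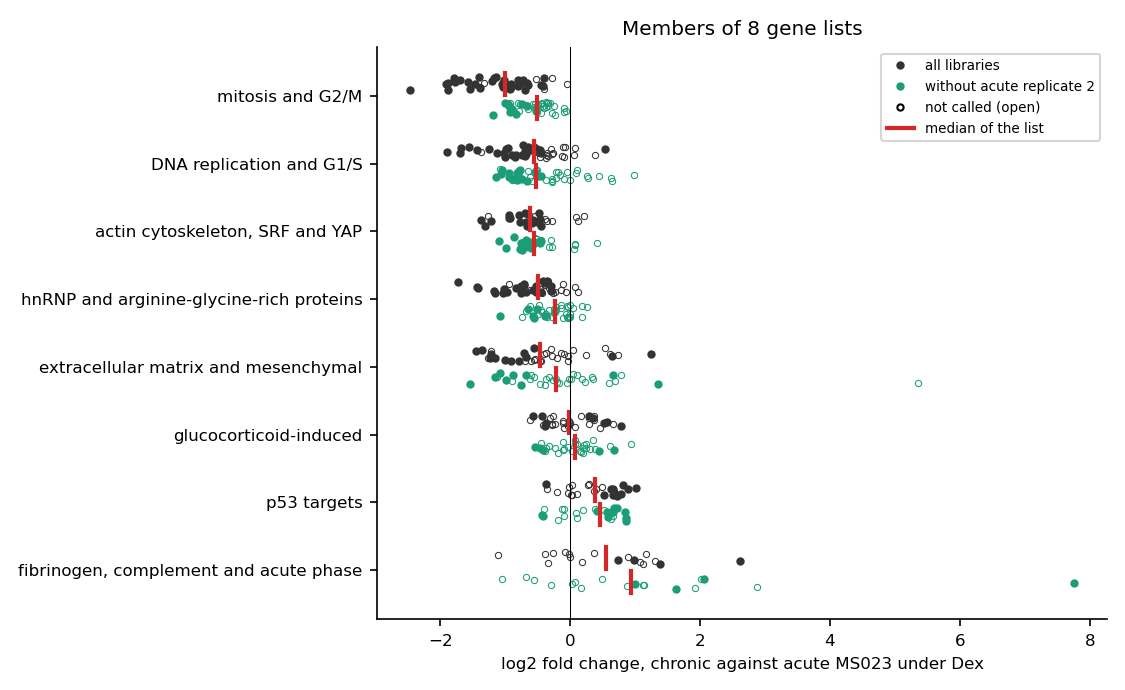
Log2 fold change of chronic against acute MS023 under Dex for each member of 8 gene lists, with all libraries (dark) and without acute replicate 2 (green), filled where called, and the median as a red bar. The mitosis median moves from -1.01 to -0.51 when that library is left out, while the actin median moves from -0.61 to -0.55.

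Targets of p53, which act in arrest, repair and death, rose more often than they fell. Over all genes tested, 7.43% were higher and 9.03% lower with all libraries. Of 24 tested, 10 were higher and 1 lower with all libraries (median log2 fold change 0.38), 9 were higher and 2 lower without acute replicate 2 (median 0.47), and 8 were higher and 1 lower both ways. MDM2, the ubiquitin ligase of p53, was at 61.2 and 65.0 CPM in the acute group and 97.5 and 98.4 CPM in the chronic group, a log2 fold change of 0.63 ± 0.11 (adjusted p = 3.41e-05). FDXR, a mitochondrial reductase, was at 15.1 and 19.4 CPM against 27.3 and 27.5 CPM, a log2 fold change of 0.67 ± 0.13 (adjusted p = 0.000301). TP53INP1 was at 7.00 and 5.67 CPM against 12.9 and 12.5 CPM, and the antiproliferative gene BTG2 at 24.3 and 16.7 CPM against 37.4 and 34.2 CPM, log2 fold changes of 1.01 and 0.81. In these 4 genes both chronic libraries were above both acute ones. The phosphatase gene PPM1D, the ribonucleotide reductase gene RRM2B and the death gene BBC3 rose by log2 fold changes of 0.68, 0.65 and 0.53. TP53I3 went the other way, from 173 and 163 CPM to 119 and 141 CPM, a log2 fold change of -0.37. The cyclin-dependent kinase inhibitor gene CDKN1B rose from 20.9 and 16.9 CPM to 28.4 and 30.3 CPM, a log2 fold change of 0.64 ± 0.13.

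GDF15, a stress cytokine and p53 target, rose together with a microRNA gene inside its intron. GDF15 (chr19:18374731-18389176, plus strand) was at 35.2 and 29.1 CPM in the acute group and 51.0 and 54.8 CPM in the chronic group, a log2 fold change of 0.72 ± 0.12 (adjusted p = 1.93e-05). MIR3189 (chr19:18386562-18386634, plus strand) was at 2.08 and 1.66 CPM against 10.8 and 12.4 CPM, a log2 fold change of 2.63 ± 0.24 (adjusted p = 3.42e-11). In both genes the groups did not overlap, and the difference was larger over the microRNA hairpin than over its host. PRO-seq reads over the hairpin count nascent RNA there and not the mature microRNA. Since MIR3189 was among the 3 largest rises of genes that code for no protein, its 2 mature sequences in RefSeq (GRCh38.p14) are shown with the seed, bases 2 to 8, in capitals.
miR-3189-5p: uGCCCCAUcugugcccuggguagga
miR-3189-3p: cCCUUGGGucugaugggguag
The other leading genes of this kind were AL121949.1, an unprocessed pseudogene (chr6:63440766-63443580, plus strand), from 1.09 and 1.57 CPM to 10.0 and 12.5 CPM, and CD81-AS1, an antisense gene (chr11:2328749-2377992, minus strand) whose exons overlap CD81 on the opposite strand, from 2.52 and 2.54 CPM to 11.4 and 12.0 CPM. Their log2 fold changes were 3.06 and 2.20. The largest falls were in PTMAP5 and PTMAP2, processed pseudogenes of the prothymosin alpha gene that may share reads with it, at 8.09 and 37.2 CPM and at 3.83 and 27.7 CPM in the acute group against 2.64 and 1.25 CPM and 2.12 and 0.59 CPM in the chronic group. AF201337.1 was at 4.48 and 19.7 CPM against 2.20 and 0.37 CPM. Leaving out acute replicate 2, their log2 fold changes went from -3.55, -3.54 and -3.24 to -2.05, -1.49 and -1.79, the last no longer called.

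Gene types differed in direction with all libraries. Their counts are to be read against the 7.43% of all genes that were higher and the 9.03% that were lower. Without acute replicate 2 these shares were 3.18% and 4.73%. Of 5012 long noncoding genes, 539 were higher and 110 lower with all libraries, and 167 higher and 106 lower without acute replicate 2, where the share of rises was near that of all genes. Of 1750 processed pseudogenes, 37 were higher and 231 lower, and 18 higher and 26 lower without that library, the last 2 being below the shares of all genes. Of 14978 protein-coding genes, 1069 were higher and 1662 lower, and 524 higher and 891 lower without it. The share of processed pseudogenes in the counts and the direction of these genes thus moved with acute replicate 2. With the share of processed pseudogenes as a covariate, a fit added after seeing the data, 2130 genes were called in place of 3773, and 54 of 136 named genes lost their call.

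Lists of acute phase, immediate early, stress and metabolic genes moved in different directions. Of 18 tested genes of fibrinogen, complement and the acute phase, 4 were higher and none lower (median 0.55), and 4 higher and none lower without acute replicate 2, of which 3 were the same. FGA (chr4:154583126-154590766, minus strand), the fibrinogen alpha chain, was at 8.86 and 12.4 CPM in the acute group and 17.1 and 18.5 CPM in the chronic group, a log2 fold change of 0.73 ± 0.16 (adjusted p = 0.000709). FGL1, a liver-type fibrinogen relative, was at 1.53 and 2.05 CPM against 4.91 and 4.58 CPM, a log2 fold change of 1.39 ± 0.31. Of 23 AP-1 and immediate early genes, 7 were higher and 6 lower, and 4 higher and 6 lower without acute replicate 2. FOS was at 40.9 and 30.2 CPM against 61.4 and 72.1 CPM, a log2 fold change of 0.91 ± 0.12 (adjusted p = 1.97e-07), while its relative FOSL1 was at 15.5 and 12.2 CPM against 8.64 and 10.3 CPM, -0.55 ± 0.16 (adjusted p = 0.0124). ZFP36 rose from 267 and 226 CPM to 330 and 361 CPM, and its paralog ZFP36L1 fell from 180 and 159 CPM to 89.3 and 115 CPM, both decay factors of short-lived mRNAs. Of 26 genes of the integrated stress response, 4 were higher and 1 lower, and 2 higher and none lower without acute replicate 2, these being NUPR1 and CHAC1, which breaks down glutathione (12.2 and 11.4 CPM against 20.6 and 21.9 CPM, a log2 fold change of 0.84 ± 0.15). Of 28 genes of hypoxia and glycolysis, 5 were higher and 8 lower, and 1 higher and 6 lower without that library. LDHA, lactate dehydrogenase, was at 130 and 161 CPM against 86.6 and 78.2 CPM, and the glucose transporter gene SLC2A1 at 32.9 and 31.6 CPM against 21.5 and 20.8 CPM, log2 fold changes of -0.82 and -0.61. AK4, a mitochondrial adenylate kinase, rose from 6.78 and 7.63 CPM to 17.1 and 19.2 CPM, a log2 fold change of 1.33 ± 0.18. Of 25 NRF2 targets, 1 was higher and 7 lower with all libraries and 4 higher and none lower without acute replicate 2, so the direction of this list changed with 1 library. Of 40 interferon-stimulated genes 4 were higher and 1 lower, and 2 higher and none lower without it, near the 7.43% and 3.18% of all genes that were higher.

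GPX2, among the leading rises above, is known as a target of NRF2. Its promoter (chr14:64942746-64942895, minus strand, GRCh38.p14) is shown because it holds the core of the antioxidant response element, TGACNNNGC or its complement, in capitals, as do 13.6% of all promoters and 14.8% of those of the tested genes. The start used is that of RefSeq, and the stretch lies inside the GENCODE 29 span of GPX2 given above.
GPX2: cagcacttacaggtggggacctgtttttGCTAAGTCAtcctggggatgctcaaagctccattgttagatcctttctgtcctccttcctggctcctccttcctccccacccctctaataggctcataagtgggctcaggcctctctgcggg

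Genes that glucocorticoids induce had no common direction. Of 31 tested, 5 were higher and 4 lower with all libraries, and 2 higher and 3 lower without acute replicate 2, with medians of -0.02 and 0.07. The shares are to be read against the 7.43% and 9.03% of all genes. Summed over the list, the acute libraries were at 2252 and 2094 CPM and the chronic ones at 1981 and 2225 CPM, the 2 ranges overlapping, against 779 and 844 CPM in untreated cells. FKBP5 (chr6:35573585-35728583, minus strand), a chaperone partner that feeds back on the receptor, was at 43.5 and 64.3 CPM in the acute group and 42.8 and 38.1 CPM in the chronic group (log2 fold change -0.42 ± 0.20, adjusted p = 0.17). TSC22D3 (GILZ, an anti-inflammatory factor) was at 138 and 112 CPM against 145 and 161 CPM (0.30 ± 0.11, adjusted p = 0.0633). The clock gene PER1 was at 49.8 and 49.3 CPM against 35.7 and 40.2 CPM, a log2 fold change of -0.39 ± 0.12 (adjusted p = 0.0267) that was not called without acute replicate 2 (adjusted p = 0.0769) and was 0.14 with total counts as the only scaling. NR3C1, the receptor gene itself, was at 45.1 and 47.3 CPM against 45.3 and 57.5 CPM (0.15 ± 0.11, adjusted p = 0.362).

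Single members did differ, and the list counts below are to be read against the same 7.43% and 9.03% of all genes. SGK1 (chr6:134169246-134318112, minus strand), a kinase that controls ion transport, was at 80.6 and 67.6 CPM in the acute group and 98.1 and 121 CPM in the chronic group, a log2 fold change of 0.56 ± 0.11 (adjusted p = 0.000286). KLF9 (chr9:70384597-70414624, minus strand), a transcription factor that the receptor turns on, was at 24.7 and 21.1 CPM against 34.0 and 44.9 CPM, a log2 fold change of 0.78 ± 0.17 (adjusted p = 0.00201). KLF6 (chr10:3775996-3785281, minus strand) was at 121 and 126 CPM against 81.7 and 83.8 CPM, a log2 fold change of -0.58 ± 0.11 (adjusted p = 8.88e-05), and the insulin signalling adaptor gene IRS2 at 127 and 120 CPM against 79.0 and 104 CPM, -0.43 ± 0.12 (adjusted p = 0.0104). In these 4 genes the groups did not overlap, and all 4 were called without acute replicate 2 as well. Of 20 tested genes that glucocorticoids repress, 1 was higher (CCL2) and 5 were lower, and 2 higher and 4 lower without that library. Of 18 steroid receptors and coregulators, 2 were higher and 3 lower, with 1 and 1 left without it. The higher one was NR2F2, an orphan receptor, from 32.9 and 29.6 CPM to 51.8 and 63.3 CPM, a log2 fold change of 0.88 ± 0.12 (adjusted p = 3.99e-07).

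To ask whether the difference by duration depended on Dex, it was set against 7 days of MS023 compared with untreated cells, a difference that shares no library with the first but starts from no inhibitor rather than from 3 hours of it. Without Dex, 3127 genes were called (13.6%), 1634 higher (7.13%) and 1493 lower (6.51%). Of the 1704 genes higher under Dex, 666 were also higher and 3 lower without it, and of the 2069 lower, 747 were also lower and 12 higher. With that library left out, 370 of 728 were also higher and none lower, and 487 of 1085 also lower and 7 higher. Across 11154 genes of at least 5 CPM the 2 log2 fold changes had a Pearson r of 0.68 with all libraries and 0.53 without acute replicate 2, a description across genes that are not independent. NUPR1 rose by 3.19 under Dex and 2.95 without it, TGM2 fell by 2.05 and 2.13 on the log2 scale, and KRT7 fell by 0.96 and 1.34.

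The test of the difference between these 2 log2 fold changes called 134 genes (0.585%), 33 with a higher value under Dex (0.144%) and 101 with a lower one (0.441%). Leaving out acute replicate 2 gave 192 genes (0.838%), 56 higher (0.244%) and 136 lower (0.593%), of which 94 were shared. CCL2 was one of them. It rose by a log2 fold change of 3.10 under Dex and 1.21 without it, a difference of 1.89 (adjusted p = 0.0016). It was at 16.6 and 12.4 CPM after 7 days of MS023 alone and at 12.8 and 14.8 CPM after 7 days with Dex, so the groups with 7 days of inhibitor overlapped, while the groups without it were 6.01 and 6.55 CPM in untreated cells and 1.75 and 1.47 CPM in the acute group. SOX9 rose by 1.64 under Dex and 0.64 without it (difference 1.01, adjusted p = 0.012), a difference that was not called without acute replicate 2 (0.86, adjusted p = 0.0632). ITGA5 was lower by 0.99 on the log2 scale under Dex and had a log2 fold change of -0.01 without it (difference -0.99, adjusted p = 0.012). FGA and the muscle-type ankyrin repeat gene ANKRD1 (chr10:90912096-90921276, minus strand) had lower values under Dex. FGA rose by 0.73 under Dex and 2.67 without it (difference -1.94, adjusted p = 2.34e-05), from 2.45 and 2.42 CPM in untreated cells to 14.1 and 17.1 CPM at 7 days. ANKRD1, a YAP target, was at 19.6 and 22.9 CPM in the acute group and 8.57 and 9.74 CPM in the chronic group, and at 6.01 and 6.15 CPM in untreated cells and 8.21 and 10.5 CPM at 7 days of MS023 alone (difference -1.84, adjusted p = 0.000479).

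**Figure D5:**
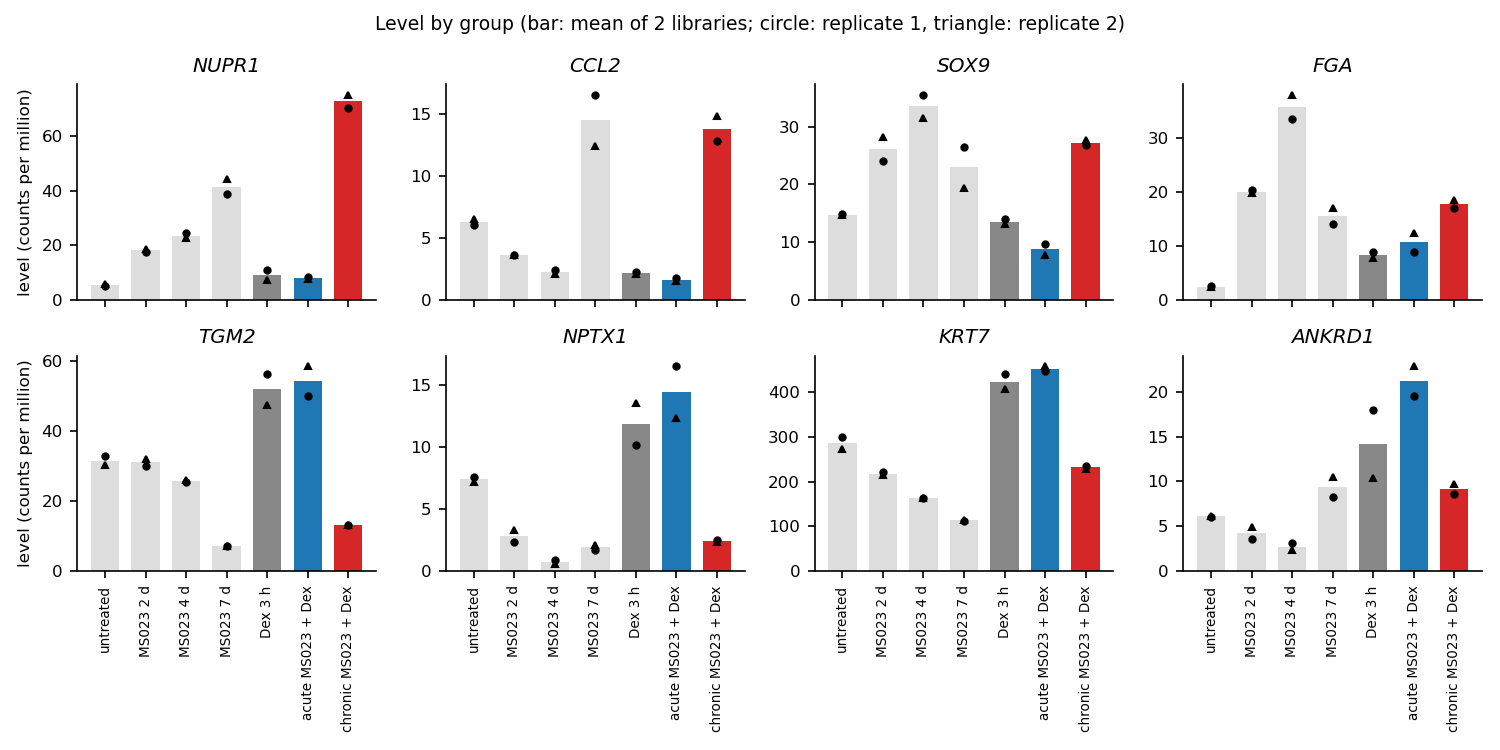
Level in CPM of 8 genes over the groups with MS023, Dex or both, with bars for the mean of 2 libraries and symbols for the replicates. NUPR1 is highest in the chronic group, while CCL2 is of like level after 7 days of MS023 with and without Dex and low in the acute group.

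The same comparison made with GSK591 shares no library with that of MS023. Chronic against acute GSK591 under Dex called 2806 genes (12.2%), 1351 higher (5.89%) and 1455 lower (6.35%). Of the 1704 genes higher with MS023, 419 were also higher and 24 lower with GSK591, and of the 2069 lower, 621 were also lower and 35 higher. The mitosis list had 29 of 40 members lower and none higher with GSK591 (median -1.50), the p53 list 12 higher and none lower, and the actin list 4 higher and 3 lower. The test of the difference between the inhibitors called 689 genes (3.01%), 348 with a higher value for MS023 (1.52%) and 341 with a lower one (1.49%). Leaving out acute replicate 2 gave 618 genes (2.7%), 268 higher (1.17%) and 350 lower (1.53%), of which 423 were shared. NUPR1 rose by 3.19 with MS023 and 1.33 with GSK591 (difference 1.87, adjusted p = 2.20e-06), from 9.39 and 9.46 CPM in the acute to 24.0 and 23.3 CPM in the chronic GSK591 group. TGM2 fell by 2.05 with MS023 and 0.39 with GSK591 on the log2 scale (difference -1.67, adjusted p = 1.10e-09). GPX2 rose by 1.63 with MS023 and had a log2 fold change of -0.09 with GSK591 (difference 1.72, adjusted p = 2.26e-06). AQP3 rose by 2.00 with MS023 and fell with GSK591, from 3.98 and 1.87 CPM to 1.21 and 1.15 CPM (difference 3.30, adjusted p = 1.96e-05). PLAU fell by 1.37 on the log2 scale with MS023 and had a log2 fold change of 0.32 with GSK591 (difference -1.69, adjusted p = 3.51e-05).

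Dex alone gave a second reference that does not contain the acute libraries, though it shares the chronic ones. Chronic MS023 with Dex differed from Dex alone in 2645 genes (11.5%), 1244 higher (5.43%) and 1401 lower (6.11%). The acute group itself differed from Dex alone in 45 genes (0.196%), 31 higher (0.135%) and 14 lower (0.0611%), and in 1 gene (0.00436%), a higher one, without acute replicate 2. NUPR1 was at 10.8 and 7.08 CPM with Dex alone, CCL2 at 2.23 and 2.08 CPM, TGM2 at 56.3 and 47.5 CPM and KRT7 at 440 and 407 CPM. The log2 fold changes of the chronic group against these were 3.01, 2.67, -1.99 and -0.87. The authors' deposited tables compare each group with untreated cells. By the difference of their log2 fold changes in the authors' deposited tables, 125 of 131 named genes lay on the same side as here, and so did all 23 of the leading protein-coding genes listed there. These tables rest on the same libraries by which most of the genes were chosen, so the likeness of side was largely fixed in advance.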

How the data were processed

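PRO-seq libraries of A549 cells were compared by their labels, 4 for the main comparison out of 30. The deposited table holds raw counts per gene, which the authors made with featureCounts 2.0.1 of Subread on hg38, per the submitters' processing notes. Its strand setting and aligner are not given in the sources used here. The authors' deposited comparison tables hold log2 fold changes, p-values and a mean normalized signal per gene, in the layout of DESeq2 (per the file headers). Only the sign of the difference between the chronic and acute fold changes was used. Gene coordinates and types came from GENCODE 29.

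Of 58780 genes, 22919 passed edgeR's filterByExpr (minimum count 10, total 15). All 15 groups of 2 libraries entered 1 edgeR (4.0.16, R 4.3.3) quasi-likelihood fit with TMM scaling and 15 residual degrees of freedom. The adjusted p threshold (Benjamini-Hochberg) was 0.05. With 2 libraries against 2, a permutation test cannot go below 0.333, so none is given. Alternatives were other scalings, no filter, DESeq2 (1.42.0), fewer groups, replicate blocks and each library left out. The fit was tested on simulated data.

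Named genes were the 12 largest called rises and falls of protein-coding genes of at least 5 CPM with no overlap of the groups, the 3 largest of other types, up to 4 called members of each list, and genes fixed by name. The samples compared and the gene lists were chosen with earlier results of these data known. The replicate numbers did not pair the samples.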

Additional observations from a re-analysis of the deposited data

Results flagged for a closer look

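Genes whose difference by duration under Dex differed from the difference after 7 days of MS023 without Dex, by the edgeR interaction test, are given as differences of log2 fold changes. Those with higher values under Dex were CCL2 (1.89), RELB (1.81), INHBE (1.71) and AL121949.1 (1.69). RELB and INHBE were at 12.2 and 10.5 CPM and at 12.9 and 14.1 CPM in untreated cells, and at 5.10 and 3.98 CPM and 7.15 and 6.80 CPM after 7 days of MS023, while in the chronic and acute groups both genes were under 5 CPM in every library. INHBE was not called without acute replicate 2 (adjusted p = 0.181). Those with lower values under Dex were TMEM63C (-2.05), FGA (-1.94), ANKRD1 (-1.84) and CDKN1C (-1.82). TMEM63C was at 0.89 and 0.30 CPM in untreated cells and 3.26 and 2.90 CPM after 7 days, against 9.08 and 8.71 CPM in the acute and 10.5 and 11.7 CPM in the chronic group.

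Genes whose difference by duration differed between the inhibitors, by the same test, were LILRB3 with its listed copies (2.26), NUPR1 (1.87), CCL2 (1.86) and HILPDA (1.85) with higher values for MS023. LILRB3 was at 16.2 and 15.0 CPM in the acute and 22.7 and 21.1 CPM in the chronic MS023 group, and at 14.0 and 18.7 CPM against 4.08 and 5.50 CPM with GSK591, and its reads may be shared between near-identical copies. Those with lower values for MS023 were MEG3 (-2.56), C3 (-2.44), CNR1 (-2.40) and FOXQ1 (-2.04). MEG3 was not called without acute replicate 2 (adjusted p = 0.121).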

How the results depend on the processing

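The counts of called genes depended on the settings. In the order chronic against acute MS023, the same against 7 days without Dex, against GSK591, and chronic MS023 against Dex alone, the main counts were 3773, 134, 689 and 2645. With total counts as the only scaling they were 6285, 250, 2363 and 13127, with 96.5%, 0%, 98.5% and 99.6% higher (45.2%, 24.6%, 50.5% and 47% in the main fits). DESeq2 called 2131, 85, 345 and 1364. With only the groups of the contrast in the fit, which leaves fewer degrees of freedom, the counts were 336, 5, 194 and 2395. The first 3 contrasts contain the acute group and the last does not. The cause of this difference was not tested. Without the filter the second count was 237, and with the share of processed pseudogenes as a covariate (chosen after seeing the data) the first 2 were 2130 and 309. Leaving out each library in turn gave 1712 to 4548, 22 to 650, 368 to 1547, and 1286 to 1595 calls. The first count was 1712 without chronic replicate 2, 2426 without chronic replicate 1, 1813 without acute replicate 2 and 4548 without acute replicate 1, and the second was lowest without replicate 2 of MS023 for 7 days. The third was highest without acute replicate 1. The replicate block gave 3874, 176, 712 and 2758 calls. The deviations of acute and chronic libraries of the same number correlated at -0.48, and with acute replicates 1 and 2 exchanged the block gave 3706 calls for the first comparison. Of 136 named genes, not all of them called in the main fit, 16 lost their call with DESeq2 and 98 with only the groups of the contrast. Without acute replicate 2, more of them lost it than with DESeq2 and fewer than with only those groups. A change of sign was counted only for a named gene called in the main fit or in the fit set against it. Among such genes only EBP (0.016) and PER1 (0.14) changed sign, both with total counts as the only scaling. The cause was not tested. Under that scaling the medians of the mitosis, replication and actin lists were -0.50, -0.04 and -0.10, those of the p53 list 0.90 and of the ribosomal proteins 0.33.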

Other observations

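Of 340 small RNA genes tested, 14 were higher and 36 lower with all libraries, where 7.43% and 9.03% of all genes were. Without acute replicate 2, 4 were higher and 36 lower, where 3.18% and 4.73% of all genes were. The genes of 7SL RNA, the scaffold of the signal recognition particle, which has many near copies, took 0.478% and 0.544% of nuclear counts in the acute libraries and 0.189% and 0.175% in the chronic ones. With Dex alone they took 0.378% and 0.667%. Of 17 long noncoding host genes of snoRNAs, 4 were higher and none lower against the acute group, with a median log2 fold change of 0.03 that went to -0.08 without acute replicate 2, where 1 was higher. Against Dex alone, the same chronic libraries had none higher and 4 lower, and chronic against acute GSK591 had none higher and 10 lower. GAS5 was at 74.7 and 69.1 CPM in the acute group and 96.1 and 93.8 CPM in the chronic group, a log2 fold change of 0.40 that was called only with all libraries.

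The limits of these data are few libraries and 1 that stands apart. Each group had 2 libraries, and acute replicate 2 decided the size of most falls in cell division genes. Gene counts do not separate the pause near the start from the gene body. Mitochondrial genes took most counts of every library, which leaves 2541528 to 3957508 counts for nuclear genes. Levels are relative, so a change common to most genes is not seen.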
